A study of Mus musculus with 33 samples.

Results

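Ovaries at the stages labelled E and PE were compared across all expressed genes, with 4 libraries of polyadenylated RNA at each stage, 8 of the 33 libraries in the series. The series set ovaries with and without follicle-stimulating hormone (FSH) beside wild-type ovaries taken at different cycle stages. Both groups were labelled wild type (WT) and ovary, and each library was included by its title. The labels do not spell out the stages, which in usual usage stand for estrus (E), proestrus (PE) and diestrus (DE). Neither age nor strain is given in the sources used here. The labels also do not say that libraries of 1 group came from separate animals, so the spread behind each p-value could be technical. The 4 DE libraries and 4 libraries labelled KO (anestrus), a stage label that goes with the genotype label WT, entered the same fit and shared its estimate of spread. Libraries held 10878734 to 15925070 counts at E and 10085324 to 13324368 counts at PE, and all levels below are CPM (counts scaled to a common library total), on library sizes scaled by trimmed mean of M-values (TMM). Fold changes are E minus PE on the log2 scale.

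In the cycling rodent ovary, follicles that FSH has brought to the preovulatory stage make estradiol at proestrus. A surge of luteinizing hormone (LH) then starts ovulation, and the granulosa and theca cells left behind luteinize, take up and make cholesterol, and turn it into progesterone. Genes of granulosa cells, of the LH response, of luteal steroidogenesis, of the oocyte and of cell division were therefore listed together with markers of other cells that a dissected ovary can carry, such as oviduct, fat and smooth muscle.

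Before any comparison, 1 library stood apart. E replicate 3 was rich in transcripts of the oviduct epithelium, as all 4 PE libraries were, whereas E replicates 1, 2 and 4 nearly lacked them. Ovgp1 (ENSMUSG00000074340.9, chromosome 3, 105973711 to 105987423, GRCm38), which encodes the oviductal glycoprotein, had 2.02, 2.93, 4520 and 1.30 CPM in E replicates 1 to 4, against 2970, 5330, 3740 and 4520 CPM in PE replicates 1 to 4. The summed level of the 20 oviduct genes was 17.1, 22.0, 5020 and 22.5 CPM at E, against 3440, 6080, 4490 and 5300 CPM at PE. In the DE libraries the sum was 7910, 5020, 23.9 and 3560 CPM, so that 1 library without oviduct transcripts was also seen there. Over all genes, the log CPM of E replicate 3 correlated with PE libraries at 0.954 to 0.963 and with the other E libraries at 0.899 to 0.919; these are correlations across genes, which are not independent replicates. DE replicate 3 correlated with E replicates 1, 2 and 4 at 0.966 to 0.975, with the other DE libraries at 0.881 to 0.919 and with PE libraries at 0.894 to 0.918. E replicate 3 thus resembled PE, and DE replicate 3 resembled the other E libraries, against their labels. The labels were kept as given; whether these 2 libraries are labelled rightly was not tested, and the meaning of every value for E as a group depends on it. Values of E replicate 3 are therefore given one by one below, and the count of calls with and without it. In bulk tissue, fewer cells of a type and less RNA per cell cannot be told apart.

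**Figure D1:**
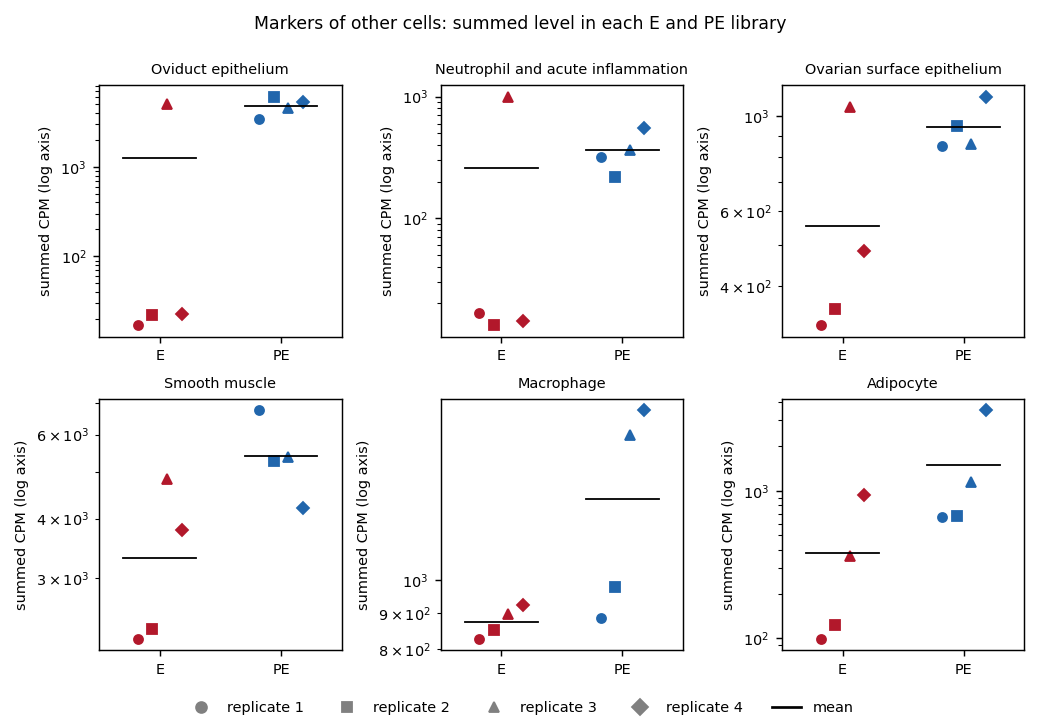
Summed CPM (log axis) of markers of 6 other cell types in each E and PE library; each point is 1 library, the symbol gives its replicate number and the line is the mean. For oviduct epithelium, E replicate 3 sits at 5020 CPM beside the PE libraries while the other E libraries lie between 17.1 and 22.5 CPM.

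Other cell types moved with the oviduct signal in part. Smooth muscle markers summed to 2240, 2350, 4840 and 3780 CPM at E and 6740, 5270, 5390 and 4220 CPM at PE, with 11 of 12 tested members at a negative fold change. Ovarian surface epithelium markers summed to 324, 354, 1050 and 483 CPM at E and 852, 945, 859 and 1110 CPM at PE. For both lists E replicate 3 was the highest E library. Adipocyte markers summed to 99.3, 123, 360 and 933 CPM at E and 660, 672, 1150 and 3500 CPM at PE; the highest value was in PE replicate 4, and all 9 members tested had a negative fold change. Lep, the gene of the fat hormone leptin, had 0.438, 0.319, 1.49 and 0.741 CPM at E and 9.23, 4.44, 16.2 and 42.7 CPM at PE, with no overlap between the groups (log2 fold change -4.59 ± 1.22, SE; edgeR adjusted p = 0.19). The genes counted as neutrophil markers were led by Ltf (lactoferrin) and Lcn2 (lipocalin 2), which secretory epithelia also make. Ltf was at 733 CPM and Lcn2 at 246 CPM in E replicate 3 alone among E libraries, where the others had at most 5.09 and 4.35 CPM. The 6 neutrophil genes tested summed to 16.5, 13.2, 1000 and 14.4 CPM at E and 316, 220, 362 and 550 CPM at PE. In DE replicates 1 to 4 they summed to 843, 227, 13.1 and 409 CPM. Levels far above those of E replicates 1, 2 and 4 were thus also seen in all PE libraries. The part of these other tissues in the differences below was not tested.

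With all 8 libraries, 0 of 16944 genes tested passed edgeR's quasi-likelihood test at a Benjamini-Hochberg adjusted p under 0.05 (0%), and the smallest adjusted p was 0.12. An unadjusted p under 0.05 was reached by 3170 genes (18.7%), 1491 higher (8.8%) and 1679 lower (9.91%) at E. In 1504 genes (8.88%) the E and PE libraries did not overlap, with 756 higher (4.46%) and 748 lower (4.41%) at E. The count of calls depended on the tool and on single libraries. DESeq2 called 344 of the 15274 genes to which it gave an adjusted p (2.25%), 154 higher (1.01%) and 190 lower (1.24%). limma voom with sample quality weights called 2433 (14.4%), 813 higher (4.8%) and 1620 lower (9.56%). Without E replicate 3 edgeR called 1847 of 17226 genes (10.7%), 386 higher (2.24%) and 1461 lower (8.48%). Without PE replicate 2 it called 279, 198 higher and 81 lower, and without PE replicate 4 it called 1, which was lower. With PE replicate 4 left out 6.1% of genes were higher and 5.85% lower without overlap. It called 0 without any 1 of the other 5 libraries. Values are therefore given per library, and a fold change that did not pass is a description.

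The 12 genes of each direction with the smallest p at a mean of at least 5 CPM, none of which passed, all had groups without overlap. All 8 libraries entered that choice, so that E replicate 3 lies with its group in these genes by the way they were chosen. A p without E replicate 3 reuses the other libraries of that choice and is no independent support. Pik3c2g (ENSMUSG00000030228.18, chromosome 6, 139587221 to 139969284), which encodes a class II phosphoinositide 3-kinase, had 106, 43.4, 109 and 91.5 CPM at E and 7.27, 15.2, 10.1 and 8.22 CPM at PE. Every E library exceeded every PE library, and the log2 fold change was 3.09 ± 0.55 (SE; edgeR adjusted p = 0.14, and 0.008 without E replicate 3). In the DE libraries Pik3c2g had 13.2, 2.90, 24.5 and 24.6 CPM, below the lowest E library. Hecw2 (chromosome 1, 53806876 to 54195168), a HECT-type ubiquitin ligase gene, had 28.4, 28.0, 29.5 and 26.3 CPM at E and 16.4, 19.6, 15.5 and 18.2 CPM at PE (0.69 ± 0.12, adjusted p = 0.12). Its groups were narrow and separate, with SDs of 1.34 CPM at E and 1.85 CPM at PE.

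The other 10 genes higher at E had fold changes below that of Pik3c2g. Znrf1, a RING-type ubiquitin ligase gene, had 83.3 to 94.9 CPM at E and 59.9 to 66.9 CPM at PE (log2 fold change 0.49 ± 0.08). Pcyox1, which encodes an oxidase that breaks down prenylated cysteine, had 465 to 903 CPM at E and 260 to 445 CPM at PE (0.98 ± 0.19). Kazald1, which encodes a secreted Kazal-domain protein, had 27.6 to 44.6 CPM at E and 10.5 to 18.3 CPM at PE (1.30 ± 0.28). The rest were Hccs, which attaches heme to cytochrome c (0.60), Spats2 (0.50), the exopolyphosphatase gene Prune1 (0.54), Sbno2 (0.46), the kinase gene Stk24 (0.39), Apeh, which encodes a peptidase for acetylated peptides (0.32), and the Rab regulator gene Tbc1d13 (0.25). Their adjusted p by edgeR ran from 0.12 to 0.19 with all libraries and from 0.0086 to 0.026 without E replicate 3. Without that library 2.24% of all genes tested were called higher, and these genes had been chosen by p in libraries that both fits share.

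Among genes lower at E, Chd9 (ENSMUSG00000056608.14, chromosome 8, 90828352 to 91054516), a chromodomain helicase gene, had 110, 123, 124 and 112 CPM at E and 326, 334, 199 and 232 CPM at PE. The 4 E libraries differed little (SD 7.16 CPM around a mean of 117 CPM), the PE libraries more (SD 67.9 around 273 CPM), and the log2 fold change was -1.22 ± 0.20 (edgeR adjusted p = 0.12). Gbp6, an interferon-inducible guanylate-binding protein gene with close relatives in the same cluster, so that its reads are uncertain, had 15.3, 16.1, 12.2 and 19.5 CPM at E and 28.2, 31.2, 40.6 and 32.9 CPM at PE (-1.08 ± 0.18, adjusted p = 0.12). Genes of cilia were also among the 12 lower ones. They were Cfap36 (27.3, 33.1, 32.3 and 32.4 CPM at E; 46.6, 46.0, 49.1 and 41.0 CPM at PE), Bbs7, a subunit gene of the BBSome (-0.76 ± 0.14), and Rabl2, a small GTPase gene (-0.82 ± 0.16). Of the oviduct list, the motile cilia gene Dnah9 had 3.42, 4.14, 34.8 and 2.87 CPM at E and 30.0, 35.5, 54.8 and 43.8 CPM at PE, with E replicate 3 inside PE.

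The other lower genes were Wrb, a receptor gene for tail-anchored membrane proteins (-0.41), Txndc17 (-0.50), Zfp185 (-0.82), Mgl2, a lectin gene of macrophages and dendritic cells (-1.14), Il18bp, which encodes the interleukin 18 binding protein (-1.17), Cadps2, a vesicle secretion gene (-1.21), and Tmem254b (-1.55), which has near-identical copies and is uncertain. All 12 had an adjusted p of 0.12 to 0.18 by edgeR with all libraries and of 0.0075 to 0.02 without E replicate 3. Without that library 8.48% of all genes tested were called lower, and these 12 had likewise been chosen by p in libraries that both fits share.

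**Figure D2:**
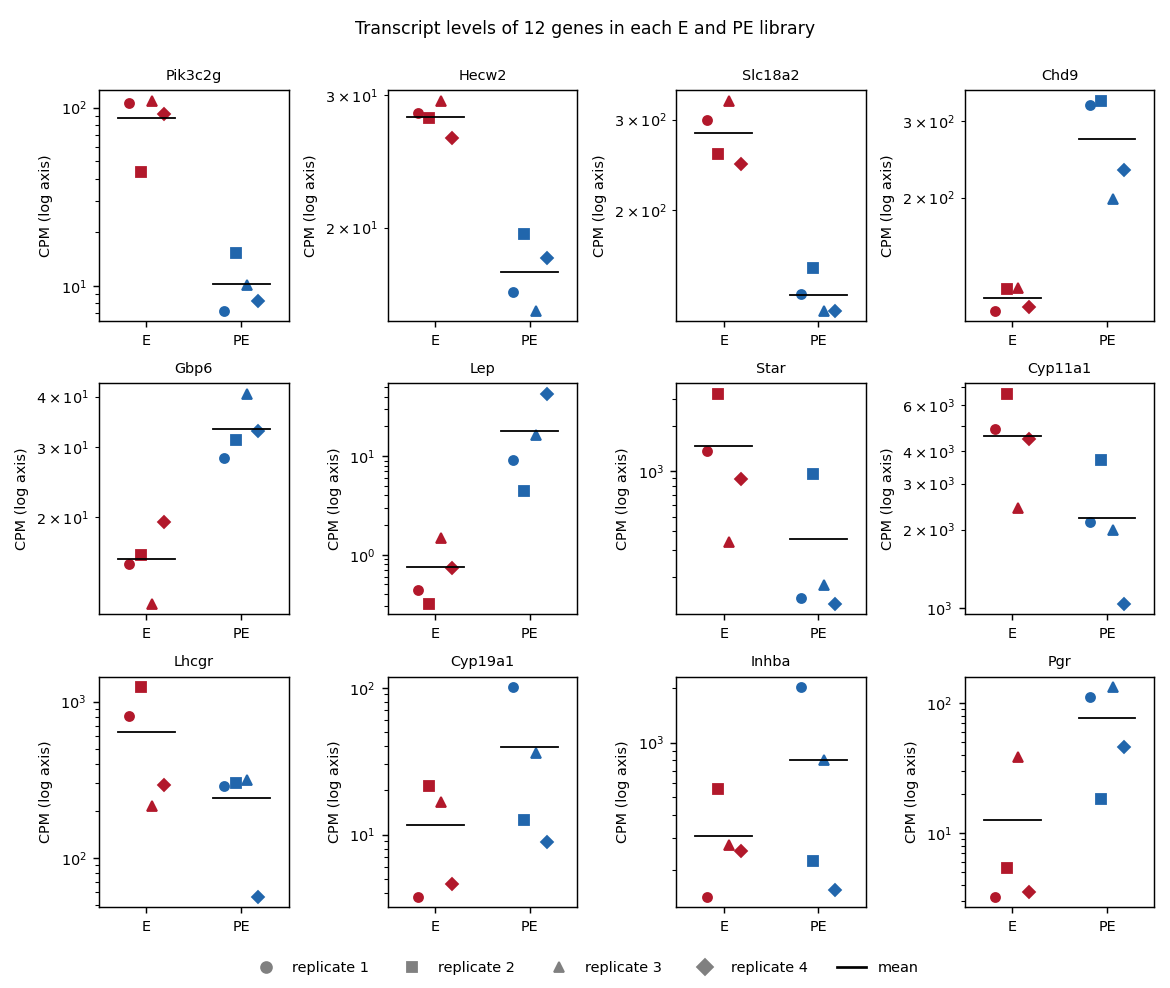
CPM (log axis) of 12 genes in each E library and each PE library; the symbol gives the replicate number and the line is the group mean. Pik3c2g, Hecw2, Slc18a2, Chd9, Gbp6 and Lep do not overlap between groups, whereas the hormone genes in the other panels spread over a wide range within PE or within E.

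In 4 of 30 granulosa genes tested every E library lay above every PE library (13.3%, against 4.46% of all genes), while the best known genes of preovulatory follicles varied widely between libraries of 1 stage. Amh (chromosome 10, 80805243 to 80807648), the anti-Müllerian hormone gene of small growing follicles, had 162, 94.6, 124 and 96.8 CPM at E and 64.6, 67.3, 65.5 and 60.7 CPM at PE, with no overlap (log2 fold change 0.89 ± 0.31, edgeR adjusted p = 0.21). Slc18a2 (chromosome 19, 59260896 to 59296012), a vesicular monoamine transporter gene, had 300, 257, 326 and 246 CPM at E and 138, 155, 128 and 128 CPM at PE (1.04 ± 0.32, adjusted p = 0.20). Foxl2, a transcription factor gene of granulosa identity, had 130 to 178 CPM at E and 68.1 to 124 CPM at PE (0.55 ± 0.21). Esr2, the gene of the estrogen receptor of granulosa cells, had 88.5 to 180 CPM at E and 59.6 to 88.4 CPM at PE (0.63 ± 0.32), so that E replicate 3 was only just above PE. The median log2 fold change of the list was 0.37, against 0.01 for all genes tested. With an oviduct index as a covariate (its genes' log2(CPM + 1), averaged per library) the median was -0.18. The index was 0.65, 0.76, 4.83 and 0.83 in E replicates 1 to 4 and 4.51 to 5.28 at PE. Among these libraries only E replicate 3 broke its match with stage. The covariate fit thus rested on that library and on the DE and KO (anestrus) libraries. Its values here and below are descriptions, and the part of oviduct content in the differences was not tested.

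Aromatase and the activin subunit separated libraries more than stages. Cyp19a1, the aromatase gene, whose enzyme turns androgen into estrogen, had 3.77, 21.5, 16.7 and 4.63 CPM at E and 101, 12.6, 36.1 and 8.90 CPM at PE (log2 fold change -1.76 ± 0.74, edgeR adjusted p = 0.23). Inhba, the gene of the beta subunit of activin A and inhibin A, had 142, 557, 274 and 255 CPM at E and 2020, 224, 800 and 155 CPM at PE (-1.38 ± 0.71, adjusted p = 0.30). In both genes PE replicates 1 and 3 were high and PE replicates 2 and 4 lay within the range of E. Cyp17a1, which makes androgen in theca cells, was also highest in PE replicates 1 and 3, with 5.88, 25.2, 5.34 and 2.50 CPM at E and 343, 2.71, 772 and 26.8 CPM at PE (-4.85 ± 1.57, adjusted p = 0.20). There PE replicate 2 lay within the range of E, and PE replicate 4 just above E replicate 2 and far above the other E libraries. Grem1, a BMP antagonist gene, had the split of Cyp19a1 and Inhba, with 1.49, 22.5, 6.59 and 18.2 CPM at E and 117, 6.55, 50.3 and 22.1 CPM at PE. No label separates these PE libraries. Inha (692 to 1090 CPM at E, 622 to 1340 at PE), Inhbb (274 to 500 at E, 204 to 770 at PE), Fshr (20.1 to 26.3 at E, 7.74 to 35.1 at PE) and Fst (146 to 274 at E, 104 to 265 at PE) lay wholly or mostly within the PE range.

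Genes of the LH surge and ovulation showed no common direction: 16 of 27 tested members had a positive and 11 a negative fold change (median 0.16), and 1 gene in each direction had groups without overlap (3.7% each, against 4.46% higher and 4.41% lower of all genes). Pgr (chromosome 9, 8899833 to 8968611), the progesterone receptor gene that LH induces in preovulatory granulosa cells and that oviduct also expresses, had 3.24, 5.35, 38.7 and 3.52 CPM at E and 112, 18.4, 133 and 46.3 CPM at PE (-2.60 ± 0.99, edgeR adjusted p = 0.22). E replicate 3 was the high E library, above PE replicate 2, and without it Pgr had an adjusted p of 0.018. Areg, which encodes the EGF-like factor amphiregulin, had 0, 0, 0.471 and 0 CPM at E and 1.14, 1.81, 1.31 and 1.35 CPM at PE. These were 0, 0, 6 and 0 counts at E and 14, 24, 16 and 14 counts at PE, with no overlap; a count of 0 allows up to 3 counts by counting error alone. The edgeR adjusted p was 0.19 with all libraries and 0.008 without E replicate 3. Vcan, the gene of the matrix proteoglycan versican, was the member without overlap in the other direction (188, 208, 243 and 262 CPM at E; 185, 176, 115 and 68.7 CPM at PE). Ptger4, a prostaglandin E2 receptor gene, was at 4.26 to 18.6 CPM at E and 14.6 to 27.1 CPM at PE, and its relative Ptger2 was at 17.6 to 28.1 CPM at E and 14.9 to 18.1 CPM at PE.

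Ptgs2, which encodes the inducible prostaglandin synthase, turned on 1 library. It had 0.965, 0.637, 40.0 and 1.39 CPM at E and 5.72, 3.91, 4.83 and 3.97 CPM at PE. The log2 fold change was 1.22 ± 1.06 (edgeR adjusted p = 0.54) with all libraries and -2.23 (adjusted p = 0.038) without E replicate 3. Prap1, a gene of uterine and intestinal epithelium, was likewise at 174 CPM in E replicate 3, at 0 in the other E libraries and at 0.980 to 1.74 CPM at PE. Both were among the 5 genes (0.0295%), all higher at E, that edgeR called with an oviduct index as a covariate, together with Gm10260, Gm14267 and Rps2-ps10, which carry names of predicted genes or pseudogenes and are uncertain; all 5 were high in E replicate 3 alone.

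Luteal genes had higher levels in most E libraries, with E replicate 3 the lowest of them in the genes shown. Of 21 luteal members tested, 20 had a positive fold change (median 0.59), where 8657 of all 16944 genes did (median 0.01). For 0 of the 21 were all E libraries above all PE libraries, against 4.46% of all genes, a small difference for a list of this size. With the oviduct index as a covariate the median was 0.23. Star (chromosome 8, 25806555 to 25815982), which brings cholesterol into mitochondria, had 1370, 3240, 342 and 893 CPM at E and 146, 960, 178 and 133 CPM at PE (log2 fold change 2.04 ± 0.84, edgeR adjusted p = 0.23). PE replicate 2 reached the E range, and E replicate 3 lay closer to the other 3 PE libraries than to its own group. Cyp11a1, which makes pregnenolone from cholesterol, had 4860, 6610, 2410 and 4450 CPM at E and 2130, 3700, 1990 and 1040 CPM at PE (1.05 ± 0.34, adjusted p = 0.20). It passed without E replicate 3 (adjusted p = 0.021) and without PE replicate 2 (0.044). Fdxr, which feeds electrons to that enzyme, had 332, 322, 238 and 323 CPM at E and 178, 268, 126 and 99.9 CPM at PE (0.86 ± 0.25).

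For the LH and prolactin receptors, E replicates 1 and 2 were above all PE libraries and E replicate 3 was within PE. Lhcgr had 811, 1240, 215 and 294 CPM at E and 290, 301, 314 and 56.2 CPM at PE (log2 fold change 1.41 ± 0.62, edgeR adjusted p = 0.25). E replicate 4 was also within PE for Lhcgr, and with the oviduct index as a covariate its value was 0.04. Prlr had 879, 1130, 453 and 710 CPM at E and 341, 746, 272 and 151 CPM at PE (1.07 ± 0.40, adjusted p = 0.21). Akr1c18, which inactivates progesterone in luteal regression, had no stage order, with 33.3, 1040, 29.2 and 353 CPM at E and 222, 158, 217 and 120 CPM at PE. It varied between E replicates more than between PE ones. E replicate 3 and PE replicate 2 were also both left out, after the data were seen. Then 9 of 21 luteal members had groups without overlap, all higher at E, where 15.8% of all genes did. Both libraries lay towards the other group in luteal genes shown here, so the count grew through that choice and is no independent support.

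Genes of cholesterol synthesis and uptake followed the luteal genes, with 22 of 23 tested members at a positive fold change (median 0.53). With the oviduct index as a covariate the median turned to -0.11. Hsd17b7 (chromosome 1, 169949535 to 169969241), an enzyme gene of cholesterol and estradiol synthesis, had 607, 1300, 44.3 and 92.3 CPM at E and 54.2, 58.1, 65.5 and 38.5 CPM at PE (3.24 ± 0.96, edgeR adjusted p = 0.20). Its rank rested on E replicates 1 and 2, and E replicate 3 lay within PE. Scarb1, the receptor gene for high-density lipoprotein, had 1190, 1510, 395 and 578 CPM at E and 383, 503, 470 and 228 CPM at PE (1.21 ± 0.39). Dhcr7, which encodes the last step to cholesterol, had 213, 270, 119 and 185 CPM at E and 59.4, 145, 44.3 and 29.5 CPM at PE (1.50 ± 0.46). Hmgcs1 (1.02), Fdps (1.14) and Acat2 (0.95) of the early pathway had E replicate 3 near the highest PE library or below it. The adjusted p of these genes was 0.20 with all libraries; 6 members passed without E replicate 3, all higher (2.24% of genes tested passed there in that direction). Plin5, a lipid droplet gene, had 62, 32.9, 16.8 and 14.6 CPM at E and 3.67, 25.1, 3.69 and 4.55 CPM at PE, again with PE replicate 2 apart.

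**Figure D3:**
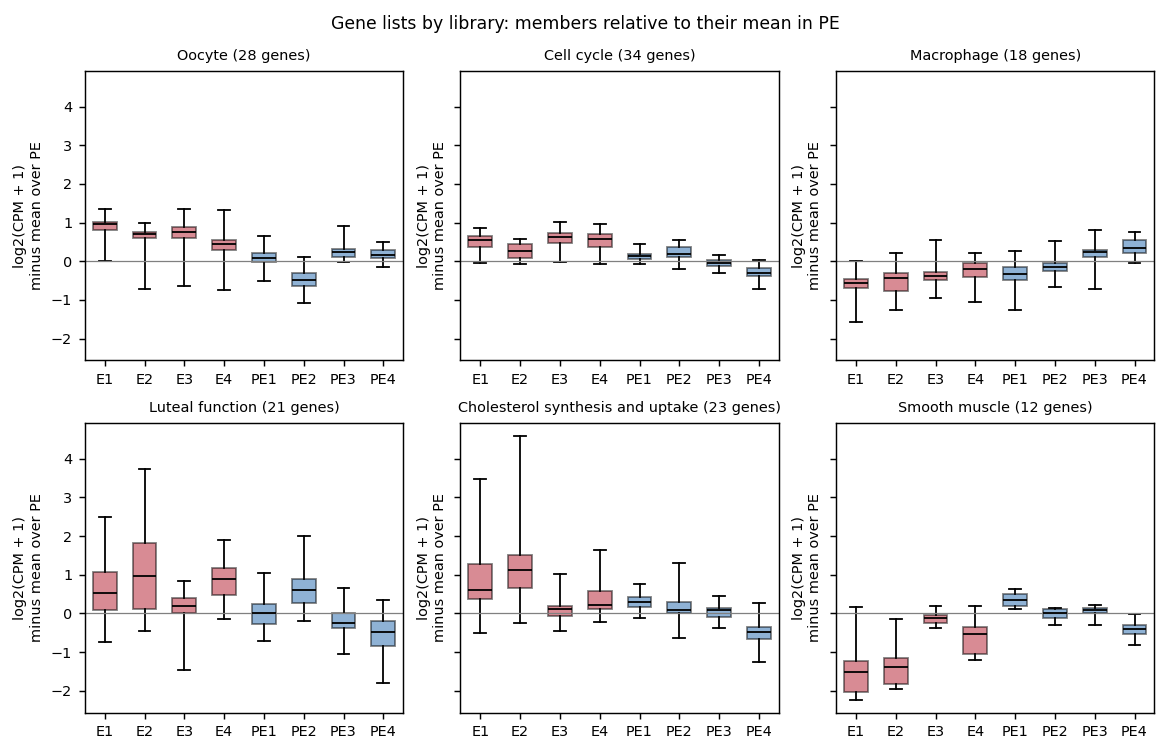
Members of 6 gene lists in each library, as log2(CPM + 1) minus the gene's mean over the 4 PE libraries; boxes hold the middle of the members, the line is their median and whiskers reach the extremes. Oocyte medians are 0.45 to 0.96 at E and -0.48 to 0.23 at PE, and cell cycle medians are 0.28 to 0.61 at E and -0.3 to 0.19 at PE. Luteal and cholesterol medians of E replicate 3 (0.18 and 0.12) are close to PE. The luteal median of PE replicate 2 (0.6) is above that of E replicate 1 (0.52).

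Oocyte transcripts had the highest share of genes without overlap among the lists with at least 10 genes tested. Of 28 members tested, 27 had a positive fold change (median 0.76), and in 18 (64.3%) every E library exceeded every PE library, where 4.46% of all genes did. None of the 28 passed edgeR's test, with or without E replicate 3, where 0% and 2.24% of all genes were called higher. Gdf9, the oocyte growth factor gene, had 101, 81.2, 92.1 and 69.6 CPM at E and 55.0, 34.8, 55.0 and 58 CPM at PE (log2 fold change 0.76 ± 0.31, edgeR adjusted p = 0.23). Padi6, a gene of the oocyte cytoplasmic lattices, had 154, 129, 159 and 118 CPM at E and 85.1, 40.1, 96.4 and 95.3 CPM at PE (0.82 ± 0.31, adjusted p = 0.22). Tle6 (chromosome 10, 81590904 to 81601073), a member of the subcortical maternal complex, had 72, 64.5, 60.5 and 49.2 CPM at E and 37.2, 31.6, 46.1 and 39.6 CPM at PE (0.67 ± 0.24, adjusted p = 0.21). In the DE libraries Tle6 had 23.3, 38.4, 62.2 and 27.4 CPM, so that DE replicate 3, the DE library without oviduct transcripts, lay within E. The zona pellucida genes Zp1 (0.83), Zp2 (0.70) and Zp3 (0.86) and the oocyte genes Fbxw15 (0.86), Tcl1 (0.83) and Bmp15 (0.81) had similar fold changes. Kit, which is also expressed outside oocytes, was the 1 member with a negative value (-0.54).

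The oviduct-rich E replicate 3 kept with its group in these genes: it lay nearer to the other E libraries than to PE in 26 of 28 members, against 40.4% of all genes tested. In the 18 members without overlap it lay above PE by definition, so this count is in part fixed by theirs. Members measured in 1 library are not independent. Groups that do not overlap cannot come to overlap when a library is left out, so such counts can only stay or grow. Without E replicate 3 the count was 19 of 28, against 9.79% of all genes. Without PE replicate 2, the library lowest in the summed oocyte level, 18 were higher and 1 lower, against 9.79% and 8.91% of all genes. Both counts were added after the data were seen. With the oviduct index as a covariate over DE, PE, E and KO (anestrus) libraries the median log2 fold change was 0.28. The summed level was 1300, 1080, 1190 and 914 CPM at E and 743, 471, 849 and 788 CPM at PE.

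Transcription of the zona genes in mouse oocytes depends on FIGLA, a factor that binds the E-box (CANNTG). The promoter windows of Zp3 and Tle6, 250 bases before to 50 after the start in RefSeq on GRCm38.p6, are shown because both genes separated the stages; capitals mark each CANNTG, which reads the same on both strands. Zp3 is at chr5:135979855-135980154 on the plus strand and Tle6 at chr10:81600851-81601150 on the minus strand, both written 5′ to 3′ along the gene.
Zp3: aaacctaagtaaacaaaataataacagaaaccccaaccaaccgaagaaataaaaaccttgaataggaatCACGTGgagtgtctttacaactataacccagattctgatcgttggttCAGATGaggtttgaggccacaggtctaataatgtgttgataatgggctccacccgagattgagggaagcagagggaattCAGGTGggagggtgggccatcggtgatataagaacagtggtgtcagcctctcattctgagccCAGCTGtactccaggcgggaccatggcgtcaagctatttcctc
Tle6: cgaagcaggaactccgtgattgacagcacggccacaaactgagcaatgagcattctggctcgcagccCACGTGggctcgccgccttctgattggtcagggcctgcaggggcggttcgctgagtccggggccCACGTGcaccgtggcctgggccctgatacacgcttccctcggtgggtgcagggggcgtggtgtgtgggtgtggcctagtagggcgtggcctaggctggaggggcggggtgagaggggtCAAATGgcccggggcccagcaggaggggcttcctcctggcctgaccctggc
The Zp3 window held 4 matches and that of Tle6 held 3. All 18 oocyte members that have a window held at least 1, but so did 72.1% of the 27025 windows of all genes, taking the first listed for each gene. A match describes letters and not a bound site.

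Cell cycle transcripts also had higher levels at E, by a smaller factor. Of 34 members tested, 33 had a positive fold change (median 0.52), 16 (47.1%) had no overlap, all of them higher (background 4.46%), and in 34 of 34 E replicate 3 lay nearer to the other E libraries. None passed edgeR's test with all libraries, where 0% of all genes did. In the 16 members without overlap E replicate 3 lay above PE by definition. Kif23 (ENSMUSG00000032254.10, chromosome 9, 61915905 to 61946774), a kinesin gene of cytokinesis, had 43.2, 39.9, 52.0 and 46.1 CPM at E and 27.6, 33.8, 24.7 and 24.3 CPM at PE (log2 fold change 0.71 ± 0.22, edgeR adjusted p = 0.20). Nusap1, a spindle gene, had 37.7, 33.7, 38.5 and 38.3 CPM at E and 22.5, 26.4, 23.6 and 20.7 CPM at PE (0.67 ± 0.25). Mki67, the proliferation marker gene, had 133, 129, 138 and 146 CPM at E and 94.7, 125, 92.9 and 59.1 CPM at PE (0.55 ± 0.26, adjusted p = 0.27). For Mki67 the groups were separated by 4 CPM only, between E replicate 2 and PE replicate 2.

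Fold changes varied among the members. The cyclin genes Ccna2, Ccnb1 and Ccne2 had 0.67, 0.66 and 0.63, and the mitotic kinase gene Plk1 had 0.64. The replication licensing genes Mcm2, Mcm3, Mcm4 and Mcm7 had fold changes of 0.25, 0.20, 0.16 and 0.18, and the sliding clamp gene Pcna had -0.05; these genes were picked after their values were seen, and differences between members were not tested. Without PE replicate 2, 23 of 34 members had no overlap (9.79% of all genes), and without E replicate 3 the count was 17 (9.79% of all genes). The summed level was 1780, 1550, 1920 and 1820 CPM at E and 1400, 1510, 1250 and 1040 CPM at PE. With the oviduct index as a covariate the median was 0.27.

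Genes of late mitosis are known for the cell cycle homology region (TTTGAA), which the DREAM and MuvB complexes use. The windows of Kif23 and Plk1, members without overlap whose window holds it, are shown with TTTGAA on either strand in capitals. The choice went by rank but passed over all windows of a single chromosome, so a higher ranked member may be absent. Kif23 is at chr9:61946750-61947049 on the minus strand and Plk1 at chr7:122159185-122159484 on the plus strand.
Kif23: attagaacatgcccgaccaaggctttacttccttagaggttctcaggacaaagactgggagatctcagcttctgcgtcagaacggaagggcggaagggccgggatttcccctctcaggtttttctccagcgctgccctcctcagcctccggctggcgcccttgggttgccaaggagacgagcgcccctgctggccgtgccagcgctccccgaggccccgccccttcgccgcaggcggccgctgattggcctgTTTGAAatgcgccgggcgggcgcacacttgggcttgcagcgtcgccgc
Plk1: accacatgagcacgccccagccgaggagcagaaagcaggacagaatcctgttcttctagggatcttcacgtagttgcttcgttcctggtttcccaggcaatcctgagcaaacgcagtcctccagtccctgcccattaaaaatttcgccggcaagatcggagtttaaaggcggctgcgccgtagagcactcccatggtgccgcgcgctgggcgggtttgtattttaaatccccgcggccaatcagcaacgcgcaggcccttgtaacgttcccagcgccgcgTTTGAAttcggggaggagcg
Each window held 1 match. The letters were found in 14 of the 28 members with a window, in 6 of the 12 without overlap that have one, and in 18.1% of the 27025 windows of all genes.

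**Figure D4:**
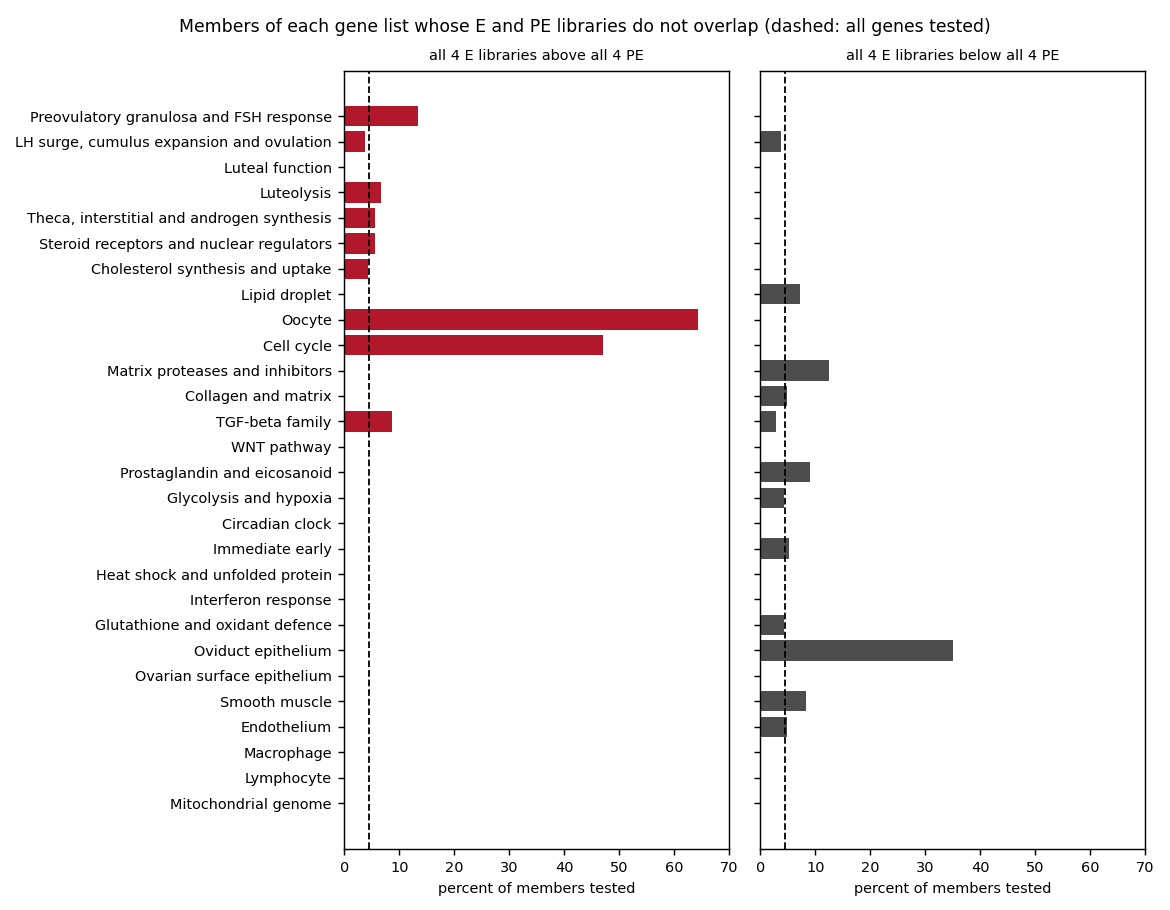
Percent of tested members of each list (lists with at least 10) whose 4 E libraries all lie above (left) or all below (right) the 4 PE libraries; dashed lines are the values for all genes tested, 4.46% and 4.41%. Oocyte and cell cycle genes reach 64.3% and 47.1% on the left, and oviduct epithelium 35% on the right.

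Markers of macrophages and several genes of matrix breakdown and prostaglandin action had lower levels at E. All 18 macrophage markers tested had a negative fold change (median -0.46), though 0 had groups without overlap, against 4.41% of all genes that were lower. PE replicates 3 and 4 were high, and PE replicates 1 and 2 lay near E. The summed macrophage level was 827, 851, 896 and 922 CPM at E and 885, 977, 1600 and 1730 CPM at PE. Erythrocyte markers were high in the same PE libraries, with 95, 208, 205 and 372 CPM at E and 175, 132, 367 and 424 CPM at PE, as the adipocyte markers given above were; their part in the macrophage difference was not tested. Lyz2, the lysozyme gene of myeloid cells, had 204 to 244 CPM at E and 136, 275, 578 and 533 CPM at PE, and C1qb, a complement gene of macrophages, had 37.9 to 47.8 CPM at E and 40.7, 49.9, 66.7 and 69.1 CPM at PE. Of 24 matrix protease genes, 3 had no overlap and were lower (12.5%, against 4.41% of all genes). Among these, Ctsb, which encodes the lysosomal protease cathepsin B, had 747, 736, 1140 and 917 CPM at E and 1280, 1310, 1700 and 1480 CPM at PE (-0.70 ± 0.18, edgeR adjusted p = 0.19), and Ctsk, cathepsin K, had 13.5 to 24.9 CPM at E and 26.3 to 33.4 CPM at PE (-0.64 ± 0.21). The secreted protease gene Mmp11 ran the other way, at 158 to 245 CPM at E and 113 to 171 CPM at PE (0.55 ± 0.17).

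In the prostaglandin list 15 of 22 members had a negative fold change. Ptger1, a prostaglandin E2 receptor gene, had 0.526, 1.02, 1.10 and 0.741 CPM at E and 4.49, 1.88, 5 and 2.13 CPM at PE (-1.97 ± 0.49, edgeR adjusted p = 0.19). Slco2a1, the prostaglandin transporter gene, had 51.5, 78.2, 77.5 and 65.5 CPM at E and 128, 92.4, 125 and 79.4 CPM at PE (-0.64 ± 0.22). The groups of both genes did not overlap (9.09% of the list, against 4.41% of all genes), and E replicate 3 was within the other E libraries or next to them. The leukotriene gene Alox5ap had 4.12, 5.54, 12.3 and 6.20 CPM at E and 16, 11.1, 16.6 and 23.1 CPM at PE, with E replicate 3 above 1 PE library.

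Immediate early genes split. Dusp1, a phosphatase gene that shuts off MAP kinases, had 166, 84.2, 18.0 and 44.5 CPM at E and 17.0, 32.4, 10.9 and 20.2 CPM at PE (1.96 ± 0.53, edgeR adjusted p = 0.19), and Nr4a1, an orphan nuclear receptor gene, had 85.4, 97.9, 23.0 and 58.4 CPM at E and 25.8, 56.8, 14.3 and 19.4 CPM at PE (1.18 ± 0.50). Atf3, a stress transcription factor gene, went the other way without overlap, at 3.31 to 5.57 CPM at E and 6.78 to 10.5 CPM at PE (-0.92 ± 0.35). It made up 5.26% of the members tested, near the 4.41% of all genes that were lower without overlap. In oxidant defence, Gsta4, a glutathione transferase gene, had 29.4, 27.8, 59.2 and 30.2 CPM at E and 86.4, 51.1, 81.4 and 76.1 CPM at PE (-1.01 ± 0.23), and Gclc, which starts glutathione synthesis, had 66.6, 70, 89.6 and 63.6 CPM at E and 122, 78.2, 142 and 92.0 CPM at PE (-0.59 ± 0.16). In both, E replicate 3 was the highest E library and PE replicate 2 the lowest PE library.

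Receptor and signalling lists had medians near that of all genes. Steroid receptors and nuclear regulators had a median of 0.05, and Esr1, the estrogen receptor gene of theca, stroma and oviduct, had 101, 72.5, 229 and 92.9 CPM at E and 253, 206, 320 and 242 CPM at PE (-1.04 ± 0.42), again with E replicate 3 apart. In the WNT pathway (median 0.11) the receptor gene Lgr4 had 130 to 180 CPM at E and 88.4 to 151 CPM at PE (0.50 ± 0.15). Znrf3, an inhibitor gene of the pathway, had 36.4 to 46.1 CPM at E and 23.2 to 37.0 CPM at PE (0.54 ± 0.17). The ligand gene Rspo1 had 5.96 to 14.8 CPM at E and 14.8 to 31.9 CPM at PE (-1.11 ± 0.33). In the TGF-beta family (median 0.04) the genes without overlap were Amh, Gdf9 and Bmp15, all higher, and Tgfbr2, lower. The shares were 8.57% higher and 2.86% lower, against 4.46% and 4.41% of all genes. Amh, Gdf9 and Bmp15 are also counted in the granulosa or oocyte lists. Fshb, the pituitary subunit gene whose counts in ovary are low, had 4.38, 10.8, 0 and 5.55 CPM at E and 0, 0, 4.18 and 2.51 CPM at PE. All were libraries labelled WT. As counts these were 50, 170, 0 and 60 at E and 0, 0, 51 and 26 at PE. In experiment 1, described below, libraries labelled WT held 1, 1 and 0 counts. Those titled Het held 43, 60 and 106, and those labelled Fshb(-/-) held 68, 79 and 82. E replicate 3 and PE replicates 1 and 2 thus lay with the WT libraries of experiment 1, and the other E and PE libraries above them. E replicates 1 and 4 and PE replicate 3 lay within the range of Het, E replicate 2 above it and PE replicate 4 below it. The DE libraries held 86, 70, 198 and 60 counts and the KO (anestrus) libraries 93, 114, 93 and 90. Both groups also carry WT in their titles. Whether the genotype labels are right was not tested.

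The remaining lists had medians of 0.23 for theca and androgen synthesis, 0.16 for luteolysis and for immediate early genes, 0.09 for endothelium, 0.05 for the circadian clock and 0.04 for oxidant defence. They were -0.08 for the mitochondrial genome, -0.09 for matrix proteases and for the interferon response, -0.12 for collagen and matrix, -0.15 for glycolysis and hypoxia, -0.17 for prostaglandins, -0.27 for lipid droplets, -0.29 for erythrocytes, -0.32 for heat shock, -0.34 for lymphocytes and -0.45 for surface epithelium. Medians of -0.59, -0.60, -0.81 and -1.12 belonged to histones, neutrophils, smooth muscle and skeletal muscle, and those of -2.16 and -2.18 to adipocytes and oviduct epithelium. With the oviduct index as a covariate some medians changed sign, to -0.06 for theca, 0.23 for collagen, 0.21 for matrix proteases, 0.29 for surface epithelium and 0.18 for the interferon response. That index nearly matched the stage, so these changes do not measure the part of oviduct content. Mitochondrial transcripts, which can track RNA quality, took 35900 to 41900 CPM at E and 35600 to 51200 CPM at PE, the highest being PE replicate 4. In none of the 33 lists did a member pass edgeR's test with all libraries, where 0% of all genes did. An unadjusted edgeR p under 0.05 was found for 17 of 28 oocyte, 15 of 34 cell cycle, 11 of 23 cholesterol and 9 of 21 luteal members, all higher, against 8.8% of all genes. In the other direction it was found for 8 of 18 macrophage, 5 of 12 smooth muscle and 7 of 20 oviduct members, all lower, against 9.91% of all genes.

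E replicate 3 was placed among the genes called without it. It took no part in the calls, but it was singled out because it resembled PE. Its place near PE in these genes is therefore no independent check. A position of 1 was set at the mean of the other 3 E libraries and 0 at the mean of PE, on the log scale. Of 382 genes called higher without it, 86 (22.5%) had E replicate 3 nearer to the other E libraries, and of 1455 called lower, 100 (6.87%) did, against 40.4% of all 16944 genes. The median position was 0.24 for the higher and 0.07 for the lower genes. It lay beyond the whole PE range on the side of the other E libraries in 127 of the 382 higher and 388 of the 1455 lower genes, against 4283 of all 16944 genes. The oviduct genes, by which E replicate 3 was singled out, were kept in these counts, and 19 of them were among the genes called lower. Called members of the cholesterol list had it nearer to the other E libraries in 1 of 6 and called luteal members in 1 of 3.

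**Figure D5:**
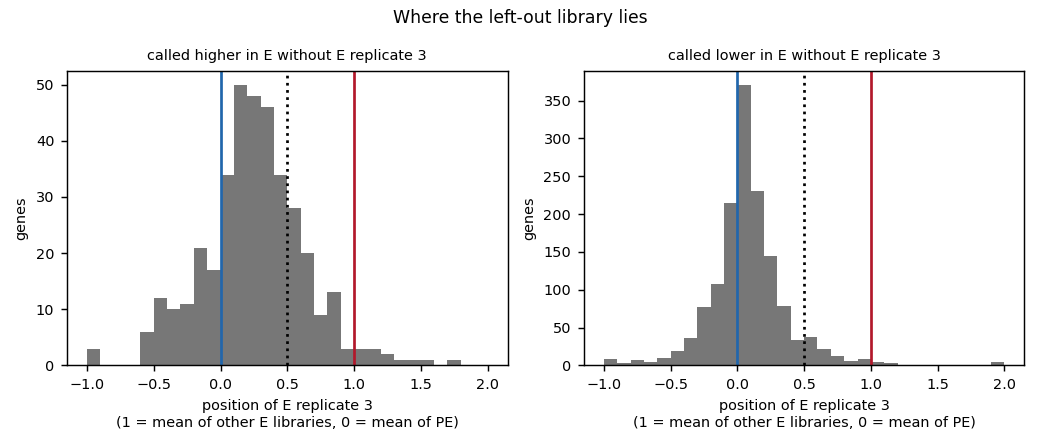
Number of genes by the position of the left-out E replicate 3, from 0 (mean of PE, blue line) to 1 (mean of the other E libraries, red line), for genes called higher or lower at E without it; values beyond -1 or 2 are drawn at those limits and the dotted line is the midpoint of 0.5. Most genes lie left of the midpoint, with medians of 0.24 and 0.07.

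Genes separating the stages were also read in 2 experiments that share no libraries with E or PE. Experiment 1 compared 3 libraries of ovaries labelled Fshb(-/-) with 3 labelled WT, and experiment 2 compared 4 libraries labelled Fshb(-/-) HFSHB (called the rescue here) with 4 labelled Fshb(-/-). Fshb, the targeted gene, ran against these labels in experiment 1, where libraries with the label Fshb(-/-) held 68, 79 and 82 counts of it and WT ones 1, 1 and 0 (log2 fold change 6.69 ± 0.63, edgeR adjusted p = 0.001). The rescue of experiment 2 held 221, 270, 370 and 431 counts of it, against 169, 184, 176 and 119 with the label Fshb(-/-). Which part of the gene the reads cover is not given in the table, and the labels are used below as they stand. edgeR called 1355 genes in experiment 1 (7.87%) and 5390 in experiment 2 (31.9%), and 456 to 1031 in experiment 1 when any 1 of its 6 libraries was left out. Of the 756 genes higher at E without overlap, 750 were tested in experiment 1, and 128 of these (17.1%) were called higher in ovaries labelled Fshb(-/-) and 10 (1.33%) lower, against 4.53% and 3.34% of all genes tested there. Of 753 tested in experiment 2, 259 (34.4%) were called lower and 101 (13.4%) higher in the rescue, against 16.2% and 15.8% of all genes. Of the 748 genes lower at E, 631 were tested in experiment 1, with 18 (2.85%) higher and 19 (3.01%) lower, and 634 in experiment 2, with 70 (11%) higher and 101 (15.9%) lower.

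Oocyte genes made up part of this overlap. Of the 18 oocyte members without overlap, 17 were called higher in libraries labelled Fshb(-/-) than in WT, against 4.53% of all genes, and 18 were called lower in the rescue than in libraries labelled Fshb(-/-), against 16.2% of all genes. For Gdf9 the log2 fold changes were 0.76 for E against PE, 0.81 for Fshb(-/-) against WT (edgeR adjusted p = 0.036) and -0.86 for the rescue against Fshb(-/-) (0.0052). Of the 16 cell cycle members without overlap, 6 were called higher in libraries labelled Fshb(-/-) and 15 lower in the rescue, beside the same shares of 4.53% and 16.2%. Kif23 had 0.71, 0.66 (adjusted p = 0.034) and -0.66 (0.0017). Pik3c2g ran against that pattern, with 3.09 for E against PE, -5.22 for Fshb(-/-) against WT (adjusted p = 0.16) and 6.28 for the rescue against Fshb(-/-) (0.03).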

How the data were processed

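Polyadenylated RNA of mouse ovary was sequenced as paired-end reads after poly(A) selection with a KAPA library kit, per the labels' protocols. The authors deposited estimated counts (expected counts) per gene in 1 table of 54347 identifiers and 33 libraries; 10.5% to 12.2% of the values of an E or PE library were not whole. The submitters' processing notes name Salmon, DESeq2 and the build GRCm38; versions, settings and strand use were not given in those sources. Reads of near-identical copies, of overlapping genes and of antisense genes are therefore uncertain.

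Counts were rounded. Identifiers were matched to GENCODE M21 (53307 with version, 54094 without); 253 had no symbol and held 0.0055% of the counts. No pair of libraries of a group agreed within sampling noise. Intervals and floors (3 counts) cover counting error only. Experiment 3 (4 groups of 4 libraries) was fitted with edgeR 4.0.16 in R 4.3.3: TMM factors, filterByExpr by group, robust glmQLFit, glmQLFTest, Benjamini-Hochberg adjustment over all genes tested, threshold 0.05. Experiments 1 and 2 were fitted alike. Library correlations use log2 CPM with a prior count of 2. The procedure was tested on simulated data. The other settings tried were a replicate block, single libraries left out, only E and PE, factors by median of ratios, filters at none or at mean CPM 1, limma 3.58.1 voom with sample quality weights, and DESeq2 1.42.0, where a gene with no adjusted p counted as not called. Fits with the oviduct index as a covariate, DESeq2 without E replicate 3, the position of that library and overlap counts without single libraries were added after seeing the data.

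The comparison, the 33 gene lists and the naming rule were chosen with earlier results of these data known. The rule names a panel of 22 genes, 12 genes per direction (by size among those that passed with no overlap, otherwise by p, at a mean of at least 5 CPM, without predicted models or pseudogenes) and up to 5 members of each list by p. Other genes, among them Foxl2, Grem1, Bmp15, Zp2, Zp3, Kit, Ccnb1, Plk1, the Mcm genes, Pcna, Tgfbr2, Ltf, Lcn2 and Prap1, were chosen after their values were seen.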

Additional observations from a re-analysis of the deposited data

Results flagged for a closer look

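A library was marked where its gap to the nearest library of its own group, divided by the range of the group, exceeded Dixon's critical value of 0.829 for 4 libraries. Chance marks about 1 in 20 groups; 278 groups were examined and 30 were marked, 16 of them through E replicate 3 and 8 through PE replicate 2. No cause was tested.

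E replicate 3 was far above the other E libraries in the summed oviduct epithelium markers (gap share 0.999) and neutrophil markers (0.997), in Ovgp1, Areg and Tmem212 (1 each), Ptgs2 (0.981), Dnah9 (0.96), Krt18 (0.957), Ccdc39 (0.948), Pgr (0.941), Gsta4 (0.923), Krt8 (0.913), Cfap126 (0.899), Il18bp (0.864) and Rsph1 (0.862). It was below them in Fdxr (0.899).

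PE replicate 2 was above the other PE libraries in Prune1 (0.982), Plin5 (0.959), Star (0.946), Pcyox1 (0.862), Znrf3 (0.841) and Stk24 (0.84), and below them in Krt8 (0.895) and Gdf9 (0.868).

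The remaining marks were single ones. PE replicate 4 was low in Lhcgr (0.907) and high in Ctsk (0.831), and PE replicate 3 was high in Apeh (0.879). E replicate 2 was high in Cyp17a1 (0.851) and low in Nusap1 (0.83), and E replicate 1 was low in Cfap36 (0.851).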

How the results depend on the processing

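The count of genes called between E and PE was 0 with the replicate block, with only the E and PE groups, with factors by median of ratios and with filters at none or at mean CPM 1. It was 344 with DESeq2 (154 higher, 190 lower), 2433 with limma voom (813 and 1620), 2656 without both E replicate 3 and DE replicate 3 (675 and 1981), 2683 with DESeq2 without E replicate 3 (779 and 1904) and 5 with the oviduct index as a covariate (5 and 0). Leaving out 1 library gave 0 to 1847 calls (0 to 386 higher, 0 to 1461 lower). List members called numbered 0 of 567 in all, 16 of 548 with DESeq2 (2.92%, against 2.25% of all genes), 104 of 567 with voom (18.3%, 14.4%), 121 of 569 without both (21.3%, 15.5%), 130 of 568 with DESeq2 without E replicate 3 (22.9%, 15.6%), 1 of 567 with the covariate (0.176%, 0.0295%) and 0 to 75 with 1 library left out, the highest of 570 without E replicate 3 (13.2%, 10.7%). The cause was not tested. Of 106 named genes, 60 passed without E replicate 3, 33 without PE replicate 2 and 40 by DESeq2, and 93 kept their sign in all settings. Of all genes tested, 10.7%, 1.62% and 2.25% passed in these 3 settings. Many of the 106 were named by their p in these libraries or after their values were seen. Their counts are therefore no independent support. Libraries labelled Fshb(-/-) against WT had 2419 calls with DESeq2 in place of 1355, and 456 to 1031 with 1 library left out.

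Signs turned as follows. With voom, Fshr was at -0.11, Ptgs2 at -1.66 and Akr1c18 at -0.10. With the covariate, Fshr was at -0.44, Fst -0.45, Akr1c18 -1.71, Esr1 0.18, Esr2 -0.19, Ovgp1 0.65, Fshb -0.87, Dnah9 0.08, Krt18 0.30 and Krt8 0.31. Ptgs2 was at -2.23 without both libraries and -2.22 with DESeq2 without E replicate 3. With 1 library left out, Fshr ran from -0.20 to 0.38, Inhbb from -0.38 to 0.31, Inha from -0.19 to 0.19, Ptgs2 from -2.23 to 1.62 and Akr1c18 from -0.37 to 1.40.

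The replicate numbers did not pair the samples: deviations of the same number correlated at 0.13, -0.01, 0.07 and -0.07 for replicates 1 to 4, and the replicate block left 0 genes called. In experiments 1 and 2 the block gave 911 and 4313 calls, against 1355 and 5390.

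With 4 libraries a group, 0 calls does not show that the stages did not differ.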

Other observations

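Endothelial genes had a median log2 fold change of 0.09, with 16 of 21 members tested at a positive value. Plvap, a gene of fenestrated endothelium, was the member whose groups did not overlap, at 13.2, 17.7, 15.3 and 18.5 CPM at E and 26.3, 19.9, 20.2 and 22.0 CPM at PE. That was 4.76% of the members tested, near the 4.41% of all genes that were lower without overlap. Cdh5, the cadherin gene of endothelial junctions, had a log2 fold change of 0.41, and the transcription factor gene Sox17 of arterial endothelium and oviduct had -1.28. None of these genes passed edgeR's test with all 8 libraries.

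DE replicate 3, the DE library that nearly lacked oviduct transcripts, was apart from its group in further genes that separate E from PE. Chd9 had 204, 203, 117 and 203 CPM in DE replicates 1 to 4, where replicate 3 lay within the range of E. Gdf9 had 23.1, 61.4, 98.7 and 43.3 CPM in the same libraries, with replicate 3 again within the range of E. No test was made of single libraries, and these genes were chosen after their values were seen.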
